A study of Homo sapiens with 8 samples.

Results

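The CHD4 peaks described here lie at 6 genes that control the cell cycle and growth: MYC, CCND1, CDK2, CDKN1A, CDKN2A and MDM2. A peak was taken as a member if any base of it fell within the gene's hg19 span or the 50 kb on either side. The 6 peak lists held 47 such peaks of 36876 in all, and these merged into 20 regions of 18808. Regions are named by gene and numbered along the chromosome, so that MYC 3 is the third at MYC. The rule uses gene positions and no measured value.

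Chromatin immunoprecipitation and sequencing (ChIP-seq) with an antibody to CHD4 was done in the established human cell line SCC9, which comes from a squamous cell carcinoma. The series asks how loss of the subunit DOC1 alters genome binding by the nucleosome remodelling and deacetylase complex (NuRD). The condition labelled lacZ has the status -DOC1 and the condition labelled DOC1 has the status +DOC1, and each gave 3 CHD4 libraries, numbered 1 to 3, with 1 peak list per library. All were grown in the same medium with serum, antibiotics and hydrocortisone. The labels name 1 cell line and give neither the means by which DOC1 was supplied nor the cultures behind the numbers, so every p-value reflects library-to-library spread that may be technical. For IgG, 2 libraries (1 per condition) were made, and peaks of their own were not analysed here.

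NuRD joins an ATP-dependent remodeller, of which CHD4 is the motor, to histone deacetylases, and is found at promoters and enhancers of both active and silent genes. DOC1 is a small NuRD subunit that is also called CDK2AP1, a name that refers to its association with the kinase CDK2. In the cell cycle, MYC drives growth genes, and cyclin D1 (the product of CCND1) and CDK2 promote passage from G1 into S phase. The products of CDKN1A (p21) and CDKN2A (p16INK4a and p14ARF) hold the cycle back, and MDM2 directs the degradation of p53, a main activator of CDKN1A.

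Lists differed in length and in how deep a signal they could register. They held between 2812 peaks (lacZ 2) and 11032 peaks (DOC1 3). Reads at each summit were recovered from the deposited fold and p-value, and the median summit of lacZ 1 held 38 reads, against 15 in both DOC1 1 and DOC1 2. At a list's median local background, the fewest reads that reached its weakest p-value were 22 in lacZ 1, 17 in lacZ 2, 13 in lacZ 3, 9 in DOC1 1, 10 in DOC1 2 and 22 in DOC1 3. These correspond to folds between 3.34 and 4.14. The limit moves with the local background, so peaks were also called on fewer reads or at lower folds. A missing peak means that none passed the threshold at the background of that place, not that CHD4 was absent.

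CHD4 peaks were found near 5 of the 6 genes in lacZ 1 and DOC1 1, near all 6 in DOC1 3, and near 3 in each of lacZ 2, lacZ 3 and DOC1 2. Numbered in order, the lacZ libraries had 11, 3 and 7 peaks at the 6 loci and the DOC1 libraries 11, 3 and 12. The groups overlapped, at 7 ± 4 peaks in lacZ and 8.67 ± 4.93 peaks in DOC1 libraries (SD, n = 3). The shortest lists, lacZ 2 and DOC1 2, had the fewest member peaks. As a part of each list, the members made up between 0.0870% (DOC1 2) and 0.157% (lacZ 1).

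**Figure D1:**
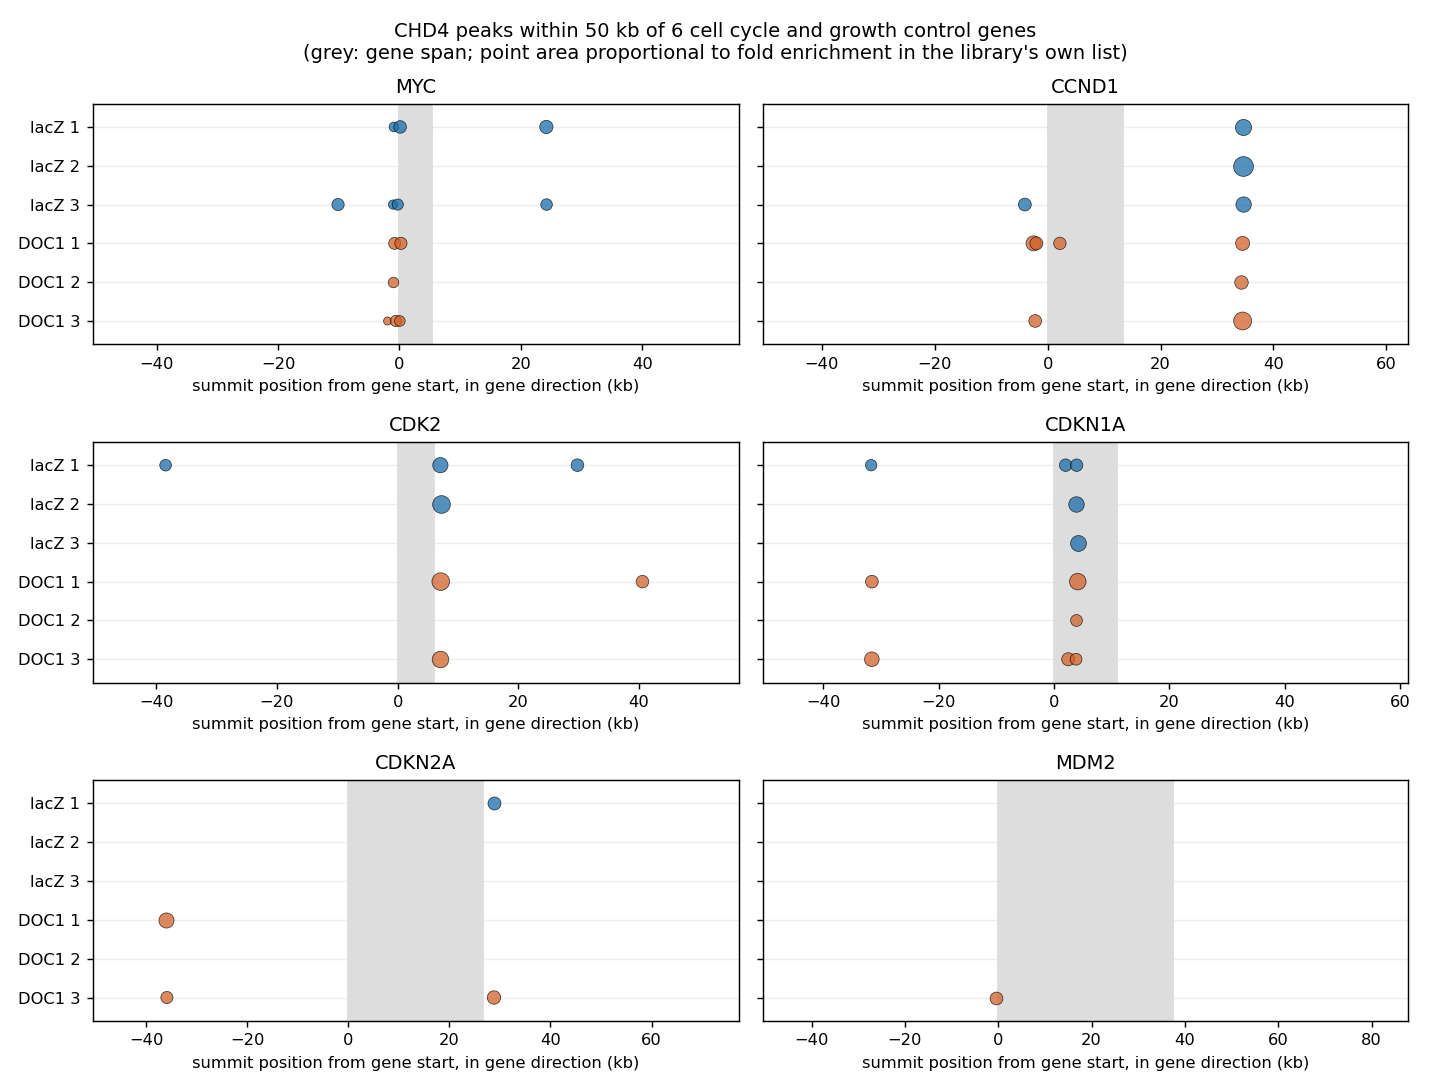
Positions of all 47 member peaks in the 6 libraries, as the distance of the summit from the gene start in kb along the gene's direction. Grey marks the gene span and point area the fold enrichment in the library's own list. The CCND1 and CDKN1A panels each have 1 column of points in all 6 libraries, and the MDM2 panel holds 1 point.

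Most member regions, like most regions of the whole series, were either seen in 1 library or shared by both groups. Of the 20 member regions, 10 (50.0%) had a peak in 1 library alone, against 56.2% of all regions. A further 7 regions (35.0%) had peaks in both groups, against 27.8%. Peaks of all 6 libraries met in 2 regions, 1 at CCND1 and 1 at CDKN1A, against 2.75% of all regions. No member region had a peak in 3 of 3 lacZ and 0 of 3 DOC1 libraries, where the background is 1.18%, and none had the opposite pattern, where it is 0.978%. With a looser rule of 2 or more libraries of one group and none of the other, 2 regions were seen only with DOC1 (background 11.5%) and 1 only without it (background 4.49%). Fisher's exact p is 0.1 for presence in 3 libraries against 0 and 0.4 for 2 against 0, so no single region can pass a test.

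The loci were denser in regions than the chromosomes as a whole, at 28.6 against 6.17 regions per Mb. The 5 regions at MYC were matched or exceeded in 2.97% of equally long tiles laid along all chromosomes. For the 4 regions at CCND1, CDKN1A and CDK2 this share was 5.20%, 5.04% and 4.72%, for the 2 at CDKN2A it was 17.0%, and for the 1 at MDM2 it was 34.7%. The tiles were not matched for gene content, and its part in the difference was not tested.

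No locus separated the groups by its number of peaks. The difference of DOC1 minus lacZ was 1 peak per library at CCND1, 0.667 at CDKN2A, 0.333 at CDKN1A and MDM2, and -0.333 at MYC and CDK2. Two-sided exact permutation tests over the 20 assignments of the libraries gave p = 0.7 at CCND1 and CDKN2A and p = 1 at the other four, where 0.1 is the smallest value possible. Lacking counts of reads per region in each library, no finer test of level could be made between the groups.

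MYC encodes a transcription factor of growth genes, and its hg19 span is chromosome 8, 128748315 to 128753680. The window held 13 peaks in 5 regions. Of these peaks lacZ 1 gave 3, lacZ 2 none and lacZ 3 4, and the DOC1 libraries gave 2, 1 and 3. CHD4 peaks clustered just before and on the gene start. The region before the start (128747039 to 128748122, MYC 3) had a peak in every library but lacZ 2. Its summits lay 920 bp before the start in lacZ 1, 1050 and 279 bp before it in lacZ 3, and 793, 1147 and 574 bp before it in DOC1 1, DOC1 2 and DOC1 3. These summits spread over 868 bp with no common position, and both groups lay among each other.

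The fold of the MYC 3 peaks was 3.18 in lacZ 1, 2.92 and 4.24 in lacZ 3, 4.91 in DOC1 1, 3.79 in DOC1 2 and 4.48 in DOC1 3. All 6 peaks ranked low by fold in their own lists, from the 0.794th percentile (lacZ 3) to the 30.8th (DOC1 3). The summits were nevertheless well covered, with 38 reads in lacZ 1, 24 and 25 in lacZ 3, 18 in DOC1 1, 19 in DOC1 2 and 54 in DOC1 3. Beneath them the local background was 1.81 to 3 times the median of the list. Fold is reads relative to this background, so these values are not independent of each other.

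A second region lay on the MYC start (128748191 to 128748726, MYC 4), with peaks in lacZ 1, DOC1 1 and DOC1 3 and none in the other three. Summits stood 99, 236 and 60 bp inside the gene, with folds of 5.43, 5.09 and 3.84 and 55, 22 and 46 reads in the same order. The strongest local background of any member peak was 1956 bp before the start, in a region of DOC1 3 alone (128746238 to 128746694, MYC 2). There 54 reads gave a fold of only 2.24, at 4.33 times the list's median background and the 0.141st percentile of fold.

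Farther from MYC the background was near the list median. A region with summits 18.8 to 18.9 kb beyond the gene end (128772320 to 128773061, MYC 5) had peaks in lacZ 1 and lacZ 3 and in no DOC1 library. The summits were 36 bp apart, with folds of 6.01 and 4.57, 36 and 14 reads, and a background of 1.00 and 0.848 times the list median. It was the 1 member region found in 2 lacZ libraries and no DOC1 library. A peak of lacZ 3 alone, with its summit 10.1 kb before the start (128738002 to 128738297, MYC 1), had a fold of 5.13.

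**Figure D2:**
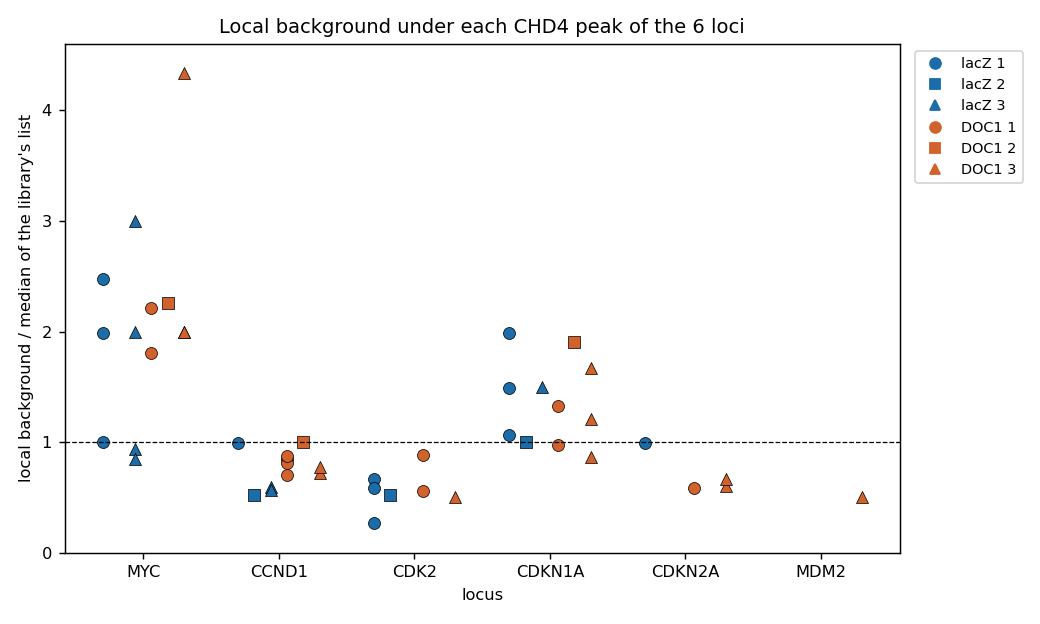
Local background under each of the 47 member peaks, divided by the median over the library's list (dashed line at 1), by locus. MYC peaks reach 4.33 and CDKN1A peaks 1.98, while no peak at CCND1, CDK2, CDKN2A or MDM2 lies above 1.

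CCND1 encodes cyclin D1, the regulatory partner of CDK4 and CDK6, and spans chromosome 11, 69455873 to 69469242. Its window held 11 peaks in 4 regions, and the strongest was not at the gene itself. That region (69489928 to 69490755, CCND1 4) had its summits 20.8 to 21.3 kb beyond the gene end, with a peak in all 6 libraries. LTO1, a gene with a role in ribosome biogenesis, is the next named protein-coding gene on that side in the RefSeq table of GRCh38. How far the region lies from LTO1 was not determined, since hg19 positions of neighbouring genes were not used here.

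The lacZ libraries, in order of number, had folds of 8.89, 13.3 and 8.06 at CCND1 4, and the DOC1 libraries 6.70, 6.22 and 10.9. Within their own lists these stood at the 91.3rd, 98.0th and 80.8th percentiles without DOC1 and at the 71.3rd, 81.8th and 99.1st with it. Every library thus had this peak in the upper part of its list. The summits held 54, 39 and 20 reads in the lacZ libraries and 15, 17 and 63 in the DOC1 libraries. In 5 libraries the summits fell within 177 bp, from 34532 to 34709 bp after the gene start, and that of DOC1 2 lay 348 bp nearer the gene.

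Within 5 kb of the CCND1 start, 4 peaks were of DOC1 libraries and 1 was of a lacZ library, where DOC1 lists hold 60.5% of all peaks. All 4 came from DOC1 1 and DOC1 3, whose lists are longer than any other, and in lists of equal length 1 of the 5 peaks was kept. A region before the start (69453200 to 69454014, CCND1 2), with summits 1995 to 2491 bp from it, held 2 peaks of DOC1 1 and 1 of DOC1 3 and none of DOC1 2 or any lacZ library. The DOC1 1 peaks had folds of 7.69 and 5.66 with 17 and 12 reads, and the DOC1 3 peak had a fold of 5.48 with 29 reads. DOC1 1 also had the sole peak inside the gene, 2167 bp after the start (69457984 to 69458202, CCND1 3), with a fold of 5.21 from 10 reads. A peak of lacZ 3 stood 4037 bp before the start (69451792 to 69452053, CCND1 1), with a fold of 5.61 from 14 reads.

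CDK2, the kinase that cyclin E and cyclin A activate, spans chromosome 12, 56360553 to 56366568. Its window held 7 peaks in 4 regions, of which 3 rested on 1 library each. None lay in the gene. The shared region (56367320 to 56368001, CDK2 2) began just after the gene end, with summits 1069 to 1128 bp beyond it. RAB5B, which encodes a small GTPase of endosomes, is the next protein-coding gene on that side in the RefSeq table of GRCh38. The distance from this region to RAB5B was not determined, so the region may lie nearer to RAB5B than to CDK2.

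Peaks of lacZ 1, lacZ 2, DOC1 1 and DOC1 3 met at CDK2 2, and lacZ 3 and DOC1 2 had none there or elsewhere in the window. The folds were 7.93, 10.7, 10.6 and 9.39 in that order, from 37, 31, 19 and 40 reads. They stood at the 86.4th, 94.3rd, 97.9th and 97.7th percentiles of their lists. Their 4 summits fell within 59 bp, the smallest spread of the member regions found in 4 or more libraries. The other such regions had 6 peaks each, and a spread tends to widen with more summits. One library of each group lacked the peak.

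The other CDK2 peaks were weaker. lacZ 1 alone had peaks with summits 38.5 kb before the gene start (56321853 to 56322280, CDK2 1) and 23.8 kb beyond the gene end (56390183 to 56390714, CDK2 3), with folds of 4.63 and 5.46. DOC1 1 alone had a peak with its summit 34.6 kb beyond the gene end (56400723 to 56401263, CDK2 4), with a fold of 5.40. SUOX and IKZF4 follow RAB5B on that side of CDK2, and PMEL and DGKA lie on the other.

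**Figure D3:**
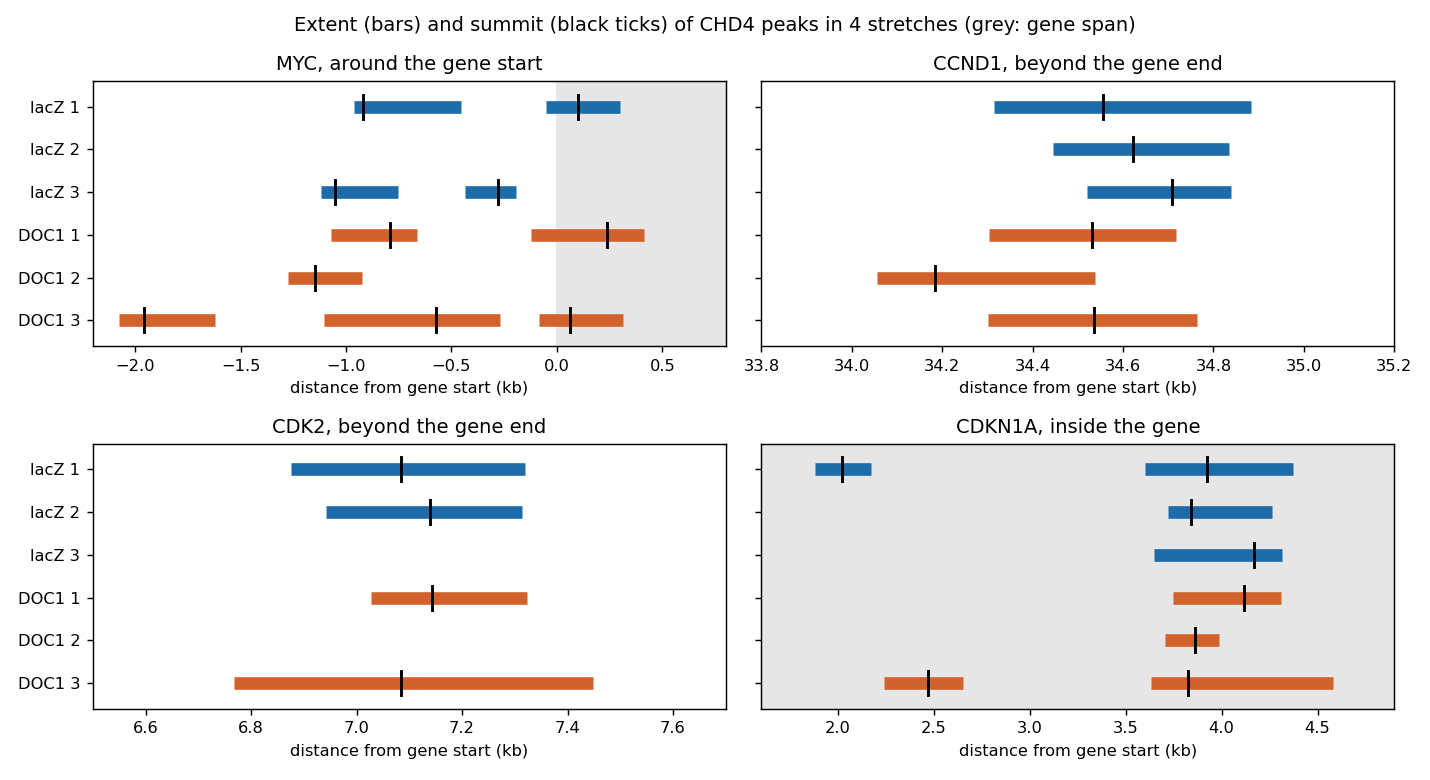
Extent of each peak (bars) and its summit (black ticks) around the MYC start, beyond the CCND1 and CDK2 ends and inside CDKN1A, as the distance from the gene start in kb, with grey marking the gene span. Summits of CDK2 2 fall within 59 bp, those of CDKN1A 4 lie on either side of a gap of 198 bp, and those of MYC 3 spread over 868 bp. The CDKN1A and MYC panels also hold peaks of neighbouring regions.

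CDKN1A encodes p21, an inhibitor of cyclin-dependent kinases and a classic p53 target, and spans chromosome 6, 36644237 to 36655116. It was the 1 gene of the 6 with a peak inside its span in every library. The window held 11 peaks in 4 regions, 3 of them within the gene. The shared region (36647836 to 36648815, CDKN1A 4) had its summits 3823 to 4167 bp after the start of the span. CDKN1A has alternative first exons, so this distance is from the outermost start and not from each promoter.

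The RefSeq table used has 1 promoter window of 300 bases for CDKN1A, most of it before a transcription start. It is shown because this gene alone had a CHD4 peak inside its span in all libraries. The summits of that shared region lay 3823 to 4167 bp after the span start. The promoter window lies at chr6:36678464-36678763 of GRCh38.p14 on the + strand. That build differs from that of the peaks, so the 2 were not overlaid. The window's place relative to the span start was not set, so the summit distances given are not distances from this window. Capitals mark matches to the GC box, GGGCGG on either strand.
CDKN1A: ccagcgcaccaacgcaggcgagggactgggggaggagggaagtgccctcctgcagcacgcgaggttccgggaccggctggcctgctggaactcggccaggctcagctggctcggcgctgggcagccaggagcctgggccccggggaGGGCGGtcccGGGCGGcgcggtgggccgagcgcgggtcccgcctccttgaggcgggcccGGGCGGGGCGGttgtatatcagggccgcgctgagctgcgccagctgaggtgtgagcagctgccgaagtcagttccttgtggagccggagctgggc
The window held 4 GC boxes, of which the last pair overlap. It had a GC content of 74.3% and 29 CpG dinucleotides, against medians of 58.7% and 14 over 35116 promoters. A GC box was present in 45.0% of those promoters (15786 of them). Neither strand had a match to TATAAA, present in 11.5% of all promoters, or to the E-box CACGTG, present in 7.26%.

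In order of number, folds at CDKN1A 4 were 5.24, 8.17 and 8.54 in the lacZ libraries and 9.32, 4.78 and 4.76 in the DOC1 libraries. The percentiles were 36.5, 82.8 and 84.8 without DOC1 and 95.8, 33.0 and 39.2 with it, so that each group had peaks both high and low in their lists. Summits held 53, 35 and 41 reads in the lacZ libraries and 28, 21 and 49 in the DOC1 libraries. The 3 low-ranking peaks were those with the highest relative background, 1.98 times the list median in lacZ 1, 1.90 in DOC1 2 and 1.67 in DOC1 3. In the other libraries it lay between 1 and 1.5. Fold is reads relative to this background, so rank and background are not independent of each other.

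Summits at CDKN1A 4 were divided at the largest gap between neighbours, a division that can be made in any region. In lacZ 1, lacZ 2, DOC1 2 and DOC1 3 they lay 3823 to 3921 bp after the span start, and in lacZ 3 and DOC1 1 they lay at 4167 and 4119 bp. The gap between both sets was 198 bp, and each set held libraries of both groups. The largest gaps at CCND1 4 and MYC 3 were wider, at 348 and 295 bp, so separate positions are not established. Nearer the start, lacZ 1 had a peak of its own at 2021 bp (36646115 to 36646409, CDKN1A 2), with a fold of 5.30, and DOC1 3 had one at 2467 bp (36646476 to 36646886, CDKN1A 3), with a fold of 5.79. These neighbouring regions did not overlap.

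Upstream of CDKN1A a region was shared by lacZ 1, DOC1 1 and DOC1 3. Its summits lay 31.6 to 31.7 kb before the span start (36612455 to 36612847, CDKN1A 1). Folds were 4.41, 5.51 and 7.31, at the 15.4th, 38.9th and 90.3rd percentiles, from 35, 13 and 45 reads. The 3 summits fell within 125 bp. These are the libraries with the longest lists.

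CDKN2A encodes p16INK4a, an inhibitor of CDK4 and CDK6, and p14ARF, an inhibitor of MDM2, from separate first exons. It is read on the minus strand of chromosome 9, 21967751 to 21994490. No library had a peak inside its span. The RefSeq windows of both starts are shown because the gene's products arise from separate promoters. They are given in GRCh38.p14 on the - strand, at chr9:21995275-21995574 for the outer start (p14ARF) and chr9:21974808-21975107 for the inner one (p16INK4a). Capitals again mark GC boxes.
CDKN2A outer start: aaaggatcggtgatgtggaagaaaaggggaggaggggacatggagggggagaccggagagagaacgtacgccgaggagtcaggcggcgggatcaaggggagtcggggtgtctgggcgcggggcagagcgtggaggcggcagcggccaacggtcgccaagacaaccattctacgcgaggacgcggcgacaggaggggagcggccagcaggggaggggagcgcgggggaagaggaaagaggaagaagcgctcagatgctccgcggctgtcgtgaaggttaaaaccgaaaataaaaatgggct
CDKN2A inner start: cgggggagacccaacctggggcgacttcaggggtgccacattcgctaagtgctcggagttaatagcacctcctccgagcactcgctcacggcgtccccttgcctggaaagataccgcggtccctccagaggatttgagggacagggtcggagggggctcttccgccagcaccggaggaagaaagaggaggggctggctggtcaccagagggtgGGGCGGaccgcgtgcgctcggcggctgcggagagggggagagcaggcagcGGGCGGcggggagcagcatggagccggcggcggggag
The outer window held no GC box and the inner window 2. Both were rich in CpG, with 28 and 26 dinucleotides and GC contents of 63.3% and 69.0%. How these windows lie relative to the hg19 peaks was not set, since the builds differ.

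CDKN2A had 4 peaks in 2 regions outside the gene. One had its summits 2100 to 2156 bp beyond the gene end (21965327 to 21965871, CDKN2A 1), with peaks in lacZ 1 and DOC1 3, folds of 5.72 and 6.14, and 34 and 29 reads. The summits were 56 bp apart. The other had its summits 35.9 to 36.1 kb before the start of the span (22030206 to 22030638, CDKN2A 2), on the side of CDKN2B, the neighbouring gene for the related inhibitor p15INK4b. It had peaks in DOC1 1 and DOC1 3 and in no lacZ library, with folds of 7.79 and 5.02 from 14 and 25 reads. Like CCND1 2, it was found in 2 of 3 DOC1 libraries and absent from DOC1 2.

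MDM2 encodes the ubiquitin ligase of p53 and spans chromosome 12, 69201952 to 69239324. With 1 peak in 1 library it had the fewest CHD4 peaks of the 6 loci. The peak was in DOC1 3, with its summit 507 bp before the gene start (69201289 to 69201748, MDM2 1). Its fold was 5.57, from 23 reads over a background of 0.501 times the list median, at the 63.4th percentile. Its deposited −log10 q-value was 4.87.

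The first RefSeq promoter window of MDM2 is given since the single peak stood next to the gene start. It is at chr12:68807922-68808221 of GRCh38.p14 on the + strand, with GC boxes in capitals.
MDM2: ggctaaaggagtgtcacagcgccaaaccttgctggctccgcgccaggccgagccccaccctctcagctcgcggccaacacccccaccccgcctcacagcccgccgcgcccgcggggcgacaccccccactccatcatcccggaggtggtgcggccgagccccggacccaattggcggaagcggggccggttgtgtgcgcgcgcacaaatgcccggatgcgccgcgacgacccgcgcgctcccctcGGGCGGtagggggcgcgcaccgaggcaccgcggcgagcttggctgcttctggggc
It had a GC content of 74.7% and 39 CpG dinucleotides, the most of the 4 windows shown, and 1 GC box. RefSeq lists 4 windows for MDM2, and those of the second start have a GC content of 59.3% to 59.7% and 21 CpG dinucleotides. The sequence matches say nothing about binding of any factor.

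The loci differed in how their peaks ranked by fold within each list. At CCND1, 8 of 11 peaks stood above their list's median fold, at CDK2 4 of 7, at CDKN1A 5 of 11, at CDKN2A 3 of 4, at MDM2 1 of 1 and at MYC 1 of 13. Over all members it was 22 of 47. Region CCND1 4 gave 6 of the 8 at CCND1, and CDK2 2 gave all 4 at CDK2. Peaks of 1 region in several libraries mark the same place, so these counts are not of independent peaks. The MYC peak above the median was that of lacZ 1 in MYC 5, and all 10 MYC peaks within 2 kb of the start stood below it. At these 10 peaks the background was at least 1.81 times the list median, and fold is not independent of it.

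**Figure D4:**
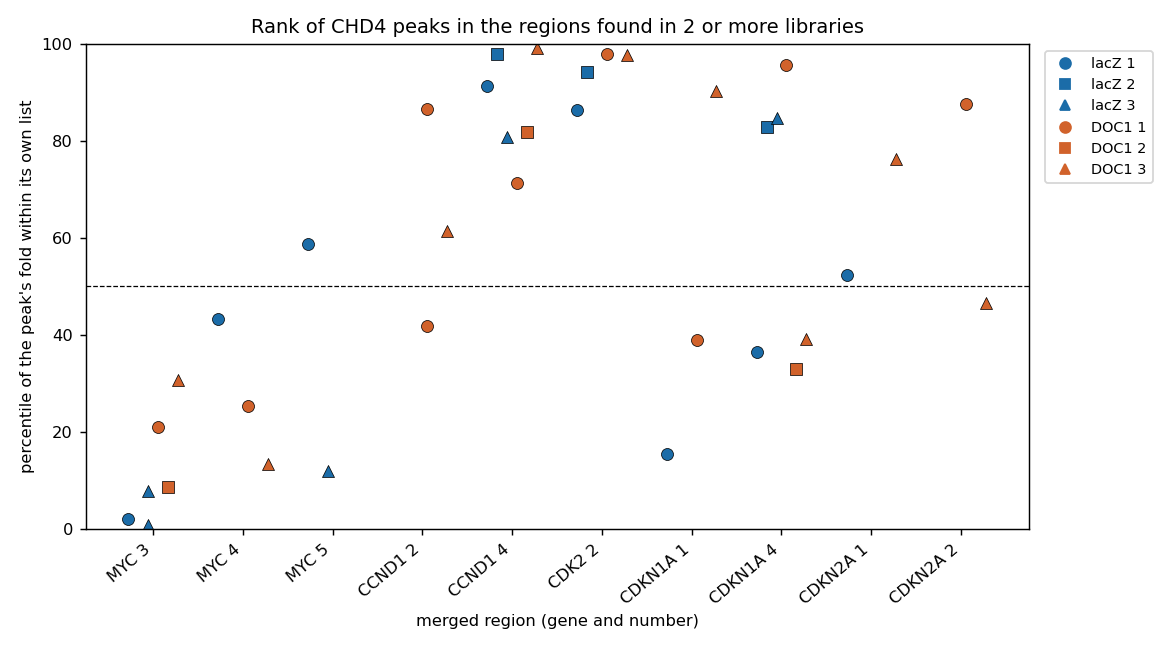
Percentile of each peak's fold within its own list for the 10 regions found in 2 or more libraries, with the dashed line at the list median. CCND1 4 and CDK2 2 lie between 71.3 and 99.1 in every library that has them, MYC 3 and MYC 4 lie between 0.794 and 43.4, and CDKN1A 4 is split, with 3 libraries above 82 and 3 below 40.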

How the data were processed

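The labels describe single 50 bp reads from libraries amplified by PCR, without naming molecular identifiers. Per the submitters' processing notes, the authors used Trimmomatic 0.33, BWA 0.7.12-r1039, SAMtools 1.2 and MACS2 2.1.1.20160309 with hg19. Its settings and control input, and any read filter, are not given in the sources here. Peaks were called by the authors per library. The lists deposited by the authors hold the fold enrichment that MACS2 calculated, a ratio of summit reads to local background. The −log10 p-value and −log10 q-value of each summit were calculated by MACS2 and deposited by the authors. The score deposited by the authors was calculated from the −log10 q-value, multiplied by 10 and cut to a whole number. The fold belongs to its own list, so it was ranked there and not tested between libraries.

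Members, gene spans and lists were chosen with earlier results of these data known. Every peak in the 6 windows is accounted for, and the named genes are those 6. Other cell cycle genes, listed beforehand for use with an hg19 annotation, were not analysed here. Gene names of neighbours come from RefSeq GRCh38.p14. Promoter windows on chromosome 8, and so any of MYC, were left out. Among the other windows of the table used, 3 of the 6 genes were found. Gene directions are textbook knowledge.

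Peaks overlapping by at least 1 bp were merged over all lists. Reads at a summit were solved from fold and p-value, taken as (reads + 1) / (background + 1) and a Poisson tail, with 1 scaling factor per library. They came out whole within 0.002 reads for 99.8% of peaks in lacZ 1 and 100% in the other lists, and for all 47 members. In simulated lists at least 99.9% were recovered. Those lists were made with the same formulas, so they check the solving and not the formulas themselves. Their ranges of reads and background did not cover every member peak. Libraries were compared by two-sided exact permutation tests, with the alternatives given in the closing section. Same-numbered libraries did not deviate together (correlations of 0.0065, 0.031 and -0.019 over 18808 regions). The software was matplotlib 3.10.9, scipy 1.17.1, pandas 2.3.3 and numpy 2.4.6 in Python 3.11.15.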

Additional observations from a re-analysis of the deposited data

How the results depend on the processing

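The 20 member regions became 33 with a flank of 100 kb, 12 at a −log10 q-value of at least 5 and 8 in lists cut to 2812 peaks each. Of the 2 regions shared by all libraries, 1 remained with equal list lengths, where the CDKN1A peak of 1 library was lost. There were 3 with a flank of 100 kb or without lacZ 2, and 2 in the other settings. Leaving out lacZ 2, which loosens the rule, gave 1 region in every lacZ and no DOC1 library in place of 0 (range 0 to 1 over libraries left out). Leaving out DOC1 2 gave 2 in every DOC1 and no lacZ library (range 0 to 2). The shares of all regions under these loosened rules were not calculated. With all libraries kept, 11.5% of all regions had peaks in 2 or 3 DOC1 libraries and no lacZ library. The reverse held for 4.49%. Differences in peaks per library (DOC1 minus lacZ) were above 0 at CCND1 in all settings, from 0.333 in lists of equal length and 0.167 without DOC1 1 to 1.67 without DOC1 2. At MYC the difference of -0.333 turned to 0.667 with a flank of 100 kb and 0.333 at the stricter threshold, and ran from -1.5 to 0.5 with 1 library left out, turning without lacZ 3 or DOC1 2. At CDK2 it was 0 at the stricter threshold and in lists of equal length, and ran from -1 to 0.5, turning without lacZ 1 or DOC1 2. At CDKN1A it was 0 with a flank of 25 kb and ran from -0.167 to 1, turning without DOC1 3. At CDKN2A the difference of 0.667 was 0 with a flank of 25 kb and 0.333 with one of 100 kb or in lists of equal length, and ran from 0.167 (without DOC1 3) to 1.17 (without DOC1 2). At MDM2 it was 0 at the stricter threshold and in lists of equal length, and ran from 0 (without DOC1 3) to 0.5. The causes were not tested. With the replicate number as a block (replicate block), the CCND1 difference stayed 1 with an exact permutation p of 1, and no call changed at any locus, where 0.25 is the smallest p possible.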

Other observations

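Where a library had no peak in a window, its nearest peak was looked up. For MYC this concerned lacZ 2, whose nearest peak lay 67.2 kb before the gene start, with a fold of 4.75. It fell in a region shared by all 6 libraries (chromosome 8, 128680328 to 128681606), outside the window of 50 kb. For MDM2, the nearest peaks of lacZ 1, lacZ 2 and lacZ 3 lay 251.6 kb after the start of the gene, in a single region (chromosome 12, 69453321 to 69453771) with folds of 7.86, 6.40 and 6.58. DOC1 3 also had a peak in that region, and DOC1 1 and DOC1 2 did not. Their nearest peaks to MDM2 were 1.54 and 3.86 Mb away.

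CDKN2A lay in a stretch poor in peaks in part of the libraries. The nearest peaks of lacZ 2 and lacZ 3 were 2.61 Mb beyond the start of its span in the direction of the gene, in a region also found in lacZ 1, DOC1 1 and DOC1 3 (chromosome 9, 19380157 to 19380773). DOC1 2 had a peak of its own 211 kb from that start. For CDK2, lacZ 3 had its nearest peak 224 kb away, with a fold of 11.4, in a region found in all libraries but DOC1 2, whose nearest peak lay 3.01 Mb away. No reason for these distances was tested.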
